A study of Mus musculus with 120 samples.

Results

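The expression of 10 glucocorticoid-responsive genes was followed in biopsies of a subcutaneous implant taken repeatedly from nonobese diabetic (NOD) and nonobese diabetes-resistant (NOR) mice. The genes were Nr3c1, Fkbp5, Tsc22d3, Zbtb16, Klf9, Cebpd, Sgk1, Hif3a, Mt1 and Mt2. They were found by gene symbol among the 55487 genes shared by the tables of both sequencing batches, and all 10 were present. None of the 10 was at 0 in any of the 120 libraries, and all 10 passed the filter on low counts in each comparison.

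The implant, called an immunological niche (IN), is a porous polycaprolactone scaffold that host cells fill. It was placed under the skin of the back of female NOD/ShiLtJ and NOR/LtJ mice at 4 weeks of age and taken out and replaced weekly from 6 weeks. Each mouse, in every group, therefore had repeated surgery under isoflurane with carprofen, an analgesic, and no group without surgery or with an added glucocorticoid was analysed here. The 6-week biopsies were the first taken out, so age, the number of earlier surgeries and the history of the implant cannot be told apart. NOR mice, which share the diabetes-prone major histocompatibility haplotype of NOD but stay normoglycemic, gave 23 libraries from 5 mice, with 4, 5, 5, 4 and 5 libraries at the ages of 6, 10, 14, 18 and 22 weeks. NOD nonprogressors, which kept normal blood glucose, gave 33 libraries from 11 mice at the same ages. A further 6 nonprogressor libraries were labelled by days after implantation (31, 38 or 108 days, 2 each) and are given apart. NOD progressors, which became hyperglycemic, gave 58 libraries from 10 mice at 6 weeks of age, at 7, 5, 3 and 1 weeks before onset and at onset (10 libraries at each time, 8 at -7 weeks). Libraries were sequenced as 2 batches, batch 1 (74 libraries, all of NOR, nonprogressors 1 to 4 and progressors 1 to 5) and batch 2 (46 libraries, nonprogressors 5 to 11 and progressors 6 to 10). The 8 libraries of -7 weeks were all in batch 2, also those of progressors 1 to 4, whose other libraries were in batch 1.

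Glucocorticoids are adrenal steroid hormones that restrain inflammation and shift metabolism, and their plasma level follows a daily rhythm and rises with stress. The hormone binds the glucocorticoid receptor, which is held ready in the cytoplasm by heat shock proteins and cochaperones, and the receptor then enters the nucleus and acts on target genes through glucocorticoid response elements or through other transcription factors. The genes studied here are widely used readouts of that receptor, but each also responds to other inputs, such as metals for the metallothioneins, oxygen for Hif3a and osmotic or growth factor signals for Sgk1. The levels below are those of bulk tissue, in which fewer cells of a type and less RNA per cell cannot be told apart.

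The windows from 250 bases before to 50 bases after annotated starts (RefSeq, GRCm38.p6) were searched on both strands for the full palindromic element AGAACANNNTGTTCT, its single arm AGAACA, and the metal response element TGCACNC or TGCGCNC. Windows were found for 7 of the 10 genes, and 3 are given here because they hold the full glucocorticoid element or most of the metal elements found. Capitals mark the matches, in either orientation.
Sgk1 (the fifth of 6 windows, chr10:21993640-21993939, plus strand): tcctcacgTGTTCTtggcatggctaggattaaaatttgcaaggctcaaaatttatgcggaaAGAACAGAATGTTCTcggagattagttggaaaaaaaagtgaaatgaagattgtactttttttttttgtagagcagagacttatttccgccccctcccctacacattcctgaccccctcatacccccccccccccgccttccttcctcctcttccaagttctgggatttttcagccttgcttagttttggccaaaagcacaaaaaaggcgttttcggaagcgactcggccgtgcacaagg
Mt1 (chr8:94178839-94179138, plus strand): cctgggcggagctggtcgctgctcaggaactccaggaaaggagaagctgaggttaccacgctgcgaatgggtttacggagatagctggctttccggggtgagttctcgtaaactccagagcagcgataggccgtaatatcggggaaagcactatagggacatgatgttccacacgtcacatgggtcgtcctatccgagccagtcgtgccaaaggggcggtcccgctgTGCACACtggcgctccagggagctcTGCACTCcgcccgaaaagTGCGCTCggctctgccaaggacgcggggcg
Mt2 (chr8:94172368-94172667, plus strand): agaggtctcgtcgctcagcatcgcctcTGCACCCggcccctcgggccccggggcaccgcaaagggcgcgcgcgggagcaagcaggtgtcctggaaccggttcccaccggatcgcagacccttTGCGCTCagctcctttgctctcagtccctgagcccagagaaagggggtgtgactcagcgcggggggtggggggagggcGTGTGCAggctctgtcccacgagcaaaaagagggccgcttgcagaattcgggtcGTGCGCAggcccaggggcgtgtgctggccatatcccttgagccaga
The Sgk1 window held the full palindrome at position -189 from the start, and a further single arm. That palindrome occurred in 3 of 32851 mouse windows (0.00913%), whereas the arm occurred in 19.0% of them. Single arms also stood in the second Tsc22d3 window and in the first and the fourth of the Sgk1 windows. Mt1 held 3 metal elements and Mt2 held 4, against at least 4 in 0.517% of all windows and at least 1 in 25.7%. The windows of Fkbp5, Klf9 and Hif3a had none of the glucocorticoid letters, and a match or its absence in these windows is a description of letters only.

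Levels were taken as CPM, the counts of a gene scaled to the effective size of its library. Expressed per kb of annotated exon, so that genes could be ranked, median levels over the 120 libraries were highest for the metallothioneins, small metal-binding proteins, at 88.4 CPM per kb for Mt2 and 76.4 for Mt1. Sgk1, a serum- and glucocorticoid-regulated kinase that acts on ion transport and survival, followed with 69.2 CPM per kb. Tsc22d3, which encodes the anti-inflammatory protein GILZ, had 31.2 CPM per kb, Klf9, a Krüppel-like transcription factor, 23.2, and the receptor gene Nr3c1 16.4. These are well expressed genes in this tissue, and each one's range overlapped that of its neighbours in the order. Lower down came Cebpd, a transcription factor of the acute phase and of fat cell formation, at 11.9 CPM per kb, and Fkbp5, the cochaperone that lowers the receptor's affinity for hormone, at 3.53. Zbtb16, a zinc finger repressor also known as PLZF, had 2.48 CPM per kb. Hif3a, which encodes a hypoxia-inducible factor subunit, had 0.101 CPM per kb and a median of 21 counts per library, so counting error weighs most on Hif3a. Neighbouring ranges overlapped here as well. Mt1 and Mt2 lie side by side on chromosome 8 and are close paralogs, and their reads may be shared between them in part.

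The genes differed in how much they varied. Over all 120 libraries Nr3c1 had a coefficient of variation of 17.2%, Sgk1 27.8%, Klf9 29.8%, Tsc22d3 31.5% and Fkbp5 40.0%. Cebpd, at 46.9%, Mt1, at 57.2%, Mt2, at 64.8%, Zbtb16, at 73.3%, and Hif3a, at 81.5%, varied more. The figure for Hif3a includes its highest value, 5.05 CPM, which was only 5 counts in the library of NOR mouse 5 at 18 weeks. In batch 2, which lacks that library, Hif3a had 63.6% and Zbtb16 61.9%, so their order is not firm. The receptor gene was thus the steadiest, and part of its spread lay between batches, where Nr3c1 averaged 115 ± 11.5 CPM (SD, n = 74) in batch 1 and 154 ± 12.3 CPM (SD, n = 46) in batch 2. Among nonprogressors of the same ages, 7 of the 10 genes differed between batches at an adjusted p under 0.05, against 48.6% of all genes tested (24.3% higher and 24.3% lower). Nr3c1 was higher in batch 2 by 0.41 on the log2 scale, and 6 were lower: Sgk1 (log2 difference -0.52), Fkbp5 (-0.51), Tsc22d3 (-0.41), Mt1 (-1.09), Klf9 (-0.86) and Cebpd (-1.17). Levels are therefore given by batch, and tests over both batches carry a batch term.

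**Figure D1:**
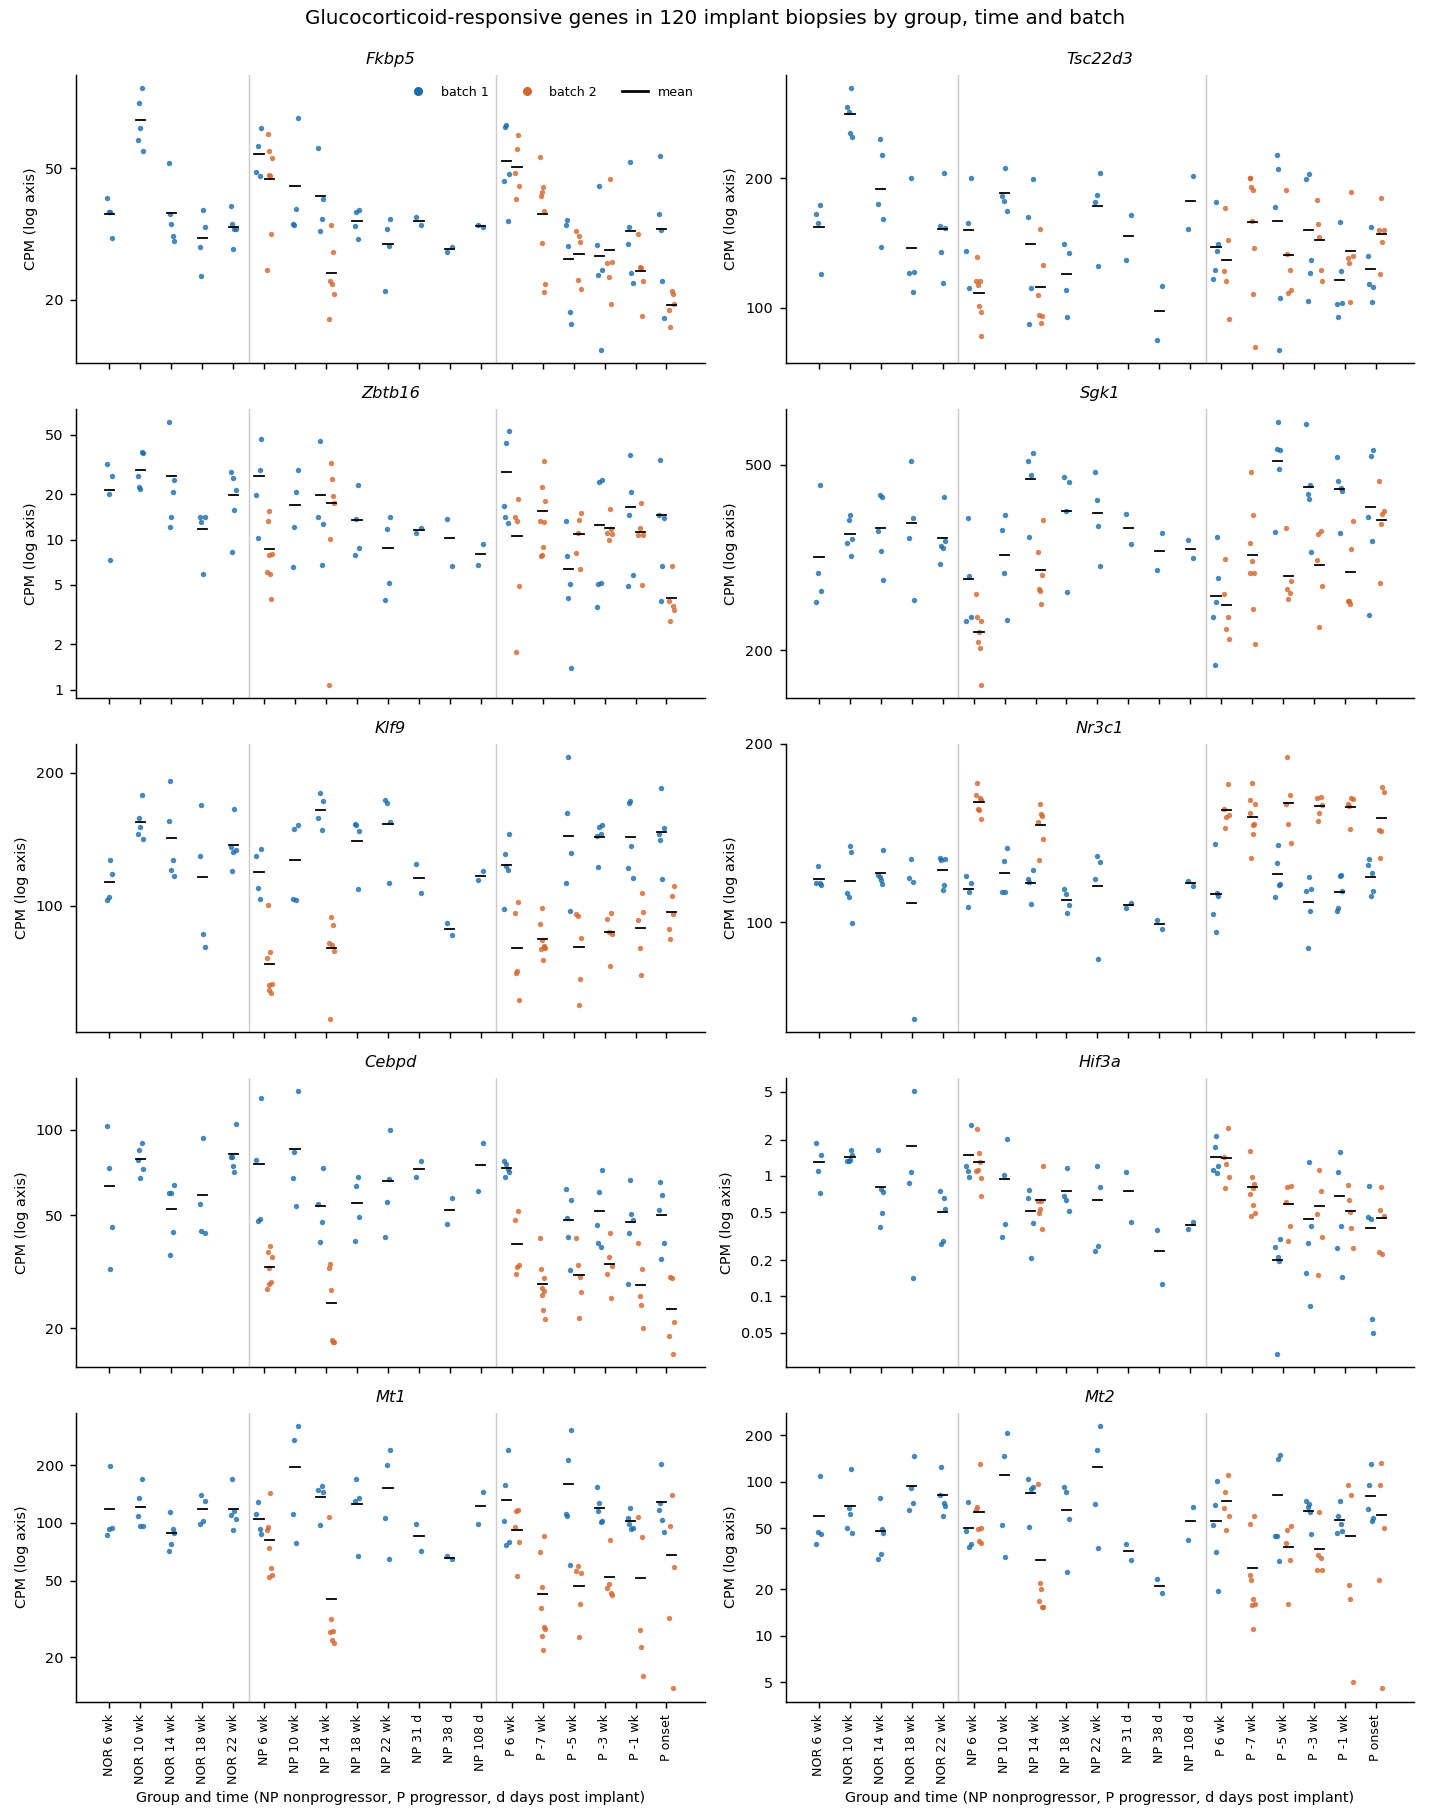
CPM (log axis) of the 10 genes in each of 120 biopsies, by group and time; blue points are batch 1, orange points batch 2 and black bars the mean of each group, time and batch. Fkbp5 and Tsc22d3 stand high in the 5 NOR biopsies of 10 weeks (56.4 to 87.8 and 249.6 to 324.9 CPM), and Fkbp5 is lower at later times than at 6 weeks in NOD mice.

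Library totals were 4722396 to 56185434 counts in batch 1 (median 30186412) and 29029239 to 43880986 in batch 2 (median 36440355). The NOR library of mouse 5 at 18 weeks stood apart, with 85.7% of its counts on 1 ribosomal RNA gene. Its effective library size was 990287 counts, so some results that rest on it are given without it too. The implants held marker genes of macrophages, fibroblasts, endothelium, fat and, in very unequal amounts, skeletal muscle, whose 8 marker genes summed to between 14.6 and 78290 CPM. Markers that were often at 0 included Lor (62 libraries) and Krt1 (52) of keratinocytes and Ly6g (38) of neutrophils.

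In NOR mice, 2 genes had a high level at 10 weeks of age that none of the other ages reached. Fkbp5 was at 61.2, 78.8, 66.5, 87.8 and 56.4 CPM in mice 1 to 5 at 10 weeks, and between 23.5 and 52.1 CPM (median 33.6) in the other 18 NOR biopsies. Tsc22d3 was at 293, 285, 255, 325 and 250 CPM at 10 weeks, and between 109 and 247 CPM in the other 18. All 5 biopsies of 10 weeks thus lay above every other NOR biopsy for both genes, with ratios of means of 2.04 for Fkbp5 and 1.76 for Tsc22d3. This holds for 49 of the 23871 genes in the level table (0.205%), while 14 genes lay below in the same way. The other 8 genes overlapped: Zbtb16, Sgk1, Klf9, Nr3c1, Cebpd, Hif3a, Mt1 and Mt2 at 10 weeks all fell partly within the range of the other ages. Of 30 further glucocorticoid targets on a list, Per1, a clock gene that the receptor induces, was the only 1 with all 5 biopsies above, at 167 to 254 CPM against 80.2 to 155 CPM.

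The age was singled out after these values were seen. The edgeR quasi-likelihood F test over all 5 NOR ages, which singles out none, called 2 of the 10 genes, Fkbp5 (adjusted p = 0.000218) and Tsc22d3 (adjusted p = 0.00476), against 8.24% of all genes tested. The F test also called 7 of 30 further targets, Per1 among them (adjusted p = 0.00651), 3 of 13 genes of receptor chaperones and corticosteroid supply, and 3 of 6 genes of metal handling. Among cell type markers, the 6 of fibroblasts summed to 21180 to 33180 CPM at 10 weeks, 36560 to 45050 at 6 weeks and 21400 to 31410 at 14 weeks. The 7 T cell markers summed to 14.4 to 57.2 CPM at 10 weeks and to 0.0 to 53.2 CPM at the other ages. Their median was 46.6 CPM at 10 weeks, against 19.2, 11.7, 7.21 and 11.6 CPM at 6, 14, 18 and 22 weeks. The part of these markers in the 10-week levels was not tested.

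The 4 nonprogressors sampled at 10 weeks did not share that separation. Fkbp5 was at 34.0, 33.7, 37.7 and 71.3 CPM in nonprogressors 1 to 4 at 10 weeks, and the biopsies of the same mice at other ages ran from 21.3 to 66.5 CPM. Only mouse 4 at 10 weeks stood above that range. Tsc22d3 was at 182, 177, 212 and 168 CPM at 10 weeks, against 91.4 to 206 CPM at the other ages, so 1 of 4 lay above. At 10 weeks only mouse 4 of the nonprogressors reached the NOR range of Fkbp5, and none reached that of Tsc22d3.

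**Figure D2:**
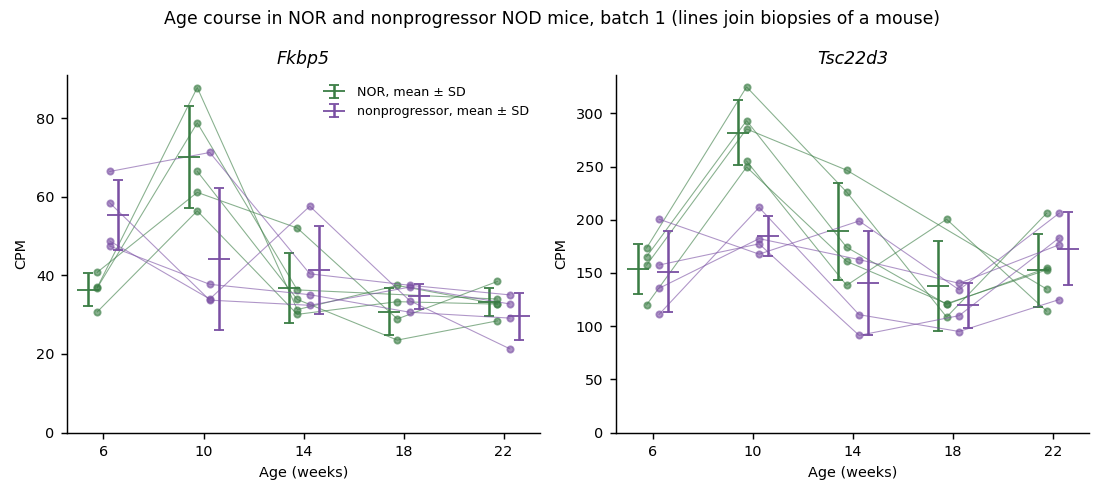
CPM of Fkbp5 and Tsc22d3 by age (weeks) in NOR mice (green) and nonprogressors (purple) of batch 1; points are biopsies, thin lines join those of a mouse, and bars give the mean ± SD of a group. For Fkbp5 the NOR mean is highest at 10 weeks (70.2 CPM, n = 5), and the nonprogressor mean is 55.3 CPM at 6 weeks and 29.6 CPM at 22 weeks (n = 4 each).

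The comparison of strains asked which genes separate NOD mice from NOR controls in batch 1, with the counts of each mouse summed over its biopsies (9 NOD mice, 5 NOR mice). Tsc22d3 was the only 1 of the 10 genes called, 1.36-fold lower in NOD (log2 difference -0.44, SE 0.114, adjusted p = 0.0245, edgeR quasi-likelihood test), against 8.98% of all genes tested, 3.87% called higher and 5.11% called lower. With the 10-week biopsies left out, the difference of Tsc22d3 was -0.21 (adjusted p = 0.379) and no gene of the 10 was called. Without NOR mouse 2 or NOR mouse 4 the difference was close in size (-0.41 and -0.39) but no longer passed the threshold (adjusted p = 0.0705 and 0.0749). Macrophage markers (3 of 8) and 1 of 7 T cell markers were lower in NOD too, and their part was not tested.

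For the other 9 genes the strain difference did not pass the test, and the 95% intervals of the log2 difference (1.96 SE either side) show what size remains possible. The interval of Klf9 was -0.16 to 0.15 and that of Nr3c1 -0.12 to -0.01. Fkbp5 had an interval of -0.61 to 0.09, Sgk1 of -0.02 to 0.3 and Cebpd of -0.49 to 0.07. Zbtb16 (-1.0 to -0.06), Hif3a (-1.08 to 0.17), Mt1 (-0.01 to 0.58) and Mt2 (-0.22 to 0.6) were less well bounded. The sign of Fkbp5 depended on the age: its difference was -0.26 over all biopsies, 0.14 without those of 10 weeks (adjusted p = 0.715), and 0.56 at 6 weeks alone (adjusted p = 0.115). At 6 weeks the 4 NOR biopsies had 40.8, 36.9, 36.9 and 30.7 CPM of Fkbp5, and the 9 NOD biopsies of batch 1 ran from 34.6 to 67.9 CPM, with the groups overlapping. Among 30 further targets, 3 were higher in NOD (Rgs2, Cdkn1a and Anxa1, log2 differences 0.47, 0.26 and 0.20) and 5 lower, with Map3k6 at -0.63, Per1 at -0.61 and Irs2 at -0.33. The shares over all genes tested were 3.87% higher and 5.11% lower. The value of Per1 includes the 5 NOR biopsies of 10 weeks, which all lay above the other NOR biopsies. No strain difference of Per1 without them is given here. Of 13 genes of chaperones and supply, 4 were lower, led by H6pd (-0.31), which feeds the enzyme that regenerates active glucocorticoid, and including Ncor1 (-0.09) and Hsd11b2 (-0.32). Of 5 metal genes tested, Mtf1, the metal-sensing activator of the metallothioneins, was higher by 0.10.

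From 6 to 22 weeks in NOR mice, none of the 10 genes was called by edgeR, with 2042 genes of 19628 at an unadjusted p under 0.05, 212 called (1.08%, with 0.642% higher and 0.438% lower) and 517 called by DESeq2, none of them a member of the 10. Hif3a had the lowest estimate, -1.38 (adjusted p = 0.3). On the lists, Cd163, a macrophage scavenger receptor induced by glucocorticoids, was 9.69-fold higher at 22 weeks (adjusted p = 0.00137). Hsd11b1, which regenerates active glucocorticoid inside cells, was 2.69-fold higher (adjusted p = 0.00994), and the zinc exporter Slc30a1 was 1.42-fold lower (adjusted p = 0.028). Of the 8 macrophage markers, 1 was higher at 22 weeks.

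In nonprogressors Fkbp5 was lower at 14 and at 22 weeks than at 6 weeks. In batch 1 the 6-week biopsies had 48.8, 58.5, 47.5 and 66.5 CPM in mice 1 to 4, and the 16 biopsies of 10 to 22 weeks ran from 21.3 to 71.3 CPM (median 34.5), 14 of them below the lowest 6-week biopsy. At 22 weeks the 4 biopsies ran from 21.3 to 35.1 CPM. In batch 2 the 7 biopsies of 6 weeks ran from 24.7 to 63.7 CPM (median 47.9) and the 6 of 14 weeks from 17.5 to 33.8 CPM (median 22.6), with 4 of the 6 below all of the 6-week biopsies.

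At 22 against 6 weeks Fkbp5 was 2.15-fold lower (log2 difference -1.10, SE 0.256, adjusted p = 0.00229) and was the only 1 of the 10 genes called, against 24.9% of all genes tested and 13.7% called lower. All 22-week libraries were of batch 1, and within that batch the difference was -0.91 (adjusted p = 0.0109). The F test over the 5 ages called 3 of the 10, Fkbp5 with Sgk1 (adjusted p = 0.00637) and Hif3a (adjusted p = 0.0284), against 34.7% of genes. Fibroblast markers were lower at 22 weeks for 5 of 6 genes and macrophage markers for 3 of 8. Their part in the fall of Fkbp5 was not tested.

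At 14 against 6 weeks, where both batches had libraries, 3 of the 10 genes were called, against 29.8% of all genes tested. Sgk1 rose by 0.53 on the log2 scale (adjusted p = 0.00114), Fkbp5 fell by 0.76 (adjusted p = 0.000969) and Hif3a fell by 1.24 (adjusted p = 0.00539). The batches differed in how firmly they carried this. Within batch 2 the same 3 genes were called, together with Mt1 (log2 difference -1.03, adjusted p = 0.045), against 34.1% of genes. Within batch 1, with 4 mice, edgeR called none of the 10, against 5.67% of genes (4322 genes at an unadjusted p under 0.05), and the estimates were -0.42 for Fkbp5 (adjusted p = 0.301), 0.71 for Sgk1 (adjusted p = 0.0558) and -1.52 for Hif3a (adjusted p = 0.145). Mt1 had the opposite sign there, at 0.37. With mouse as a block Cebpd was called as well (-0.46, adjusted p = 0.0475). At 14 weeks all 6 fibroblast markers were lower, and 7 of 8 adipocyte markers and 3 of 7 T cell markers were higher. In batch 2 the summed adipocyte markers had a median of 79.7 CPM at 6 weeks and 475.7 CPM at 14 weeks. In batch 1 the medians went the other way, from 280.0 to 130.2 CPM. None of the 8 skeletal muscle markers was called, but all 8 had positive estimates. Their summed median went from 62.05 CPM at 6 weeks to 12290 CPM at 14 weeks in batch 2. In batch 1 it went from 10850 to 470.6 CPM. The part of these markers was not tested.

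On the lists at 14 weeks, 9 of 30 further targets were higher and 1 lower, against 14% of all genes called higher and 15.8% called lower. Among those higher, Fbxo32, a muscle ubiquitin ligase (0.92), Bcl6, a transcriptional repressor (0.52), and Irs2, an insulin signalling adaptor (0.60), had the smallest p. The part of skeletal muscle content in the rise of Fbxo32 was not tested. Il1r2, the interleukin-1 decoy receptor, was lower (-1.62). Of 13 genes of chaperones and supply, Hsd11b1 (1.07), the mineralocorticoid receptor gene Nr3c2 (0.66) and H6pd (0.21) were higher, and Hsp90aa1 (-0.33), Ptges3 (-0.27) and Hspa8 (-0.28), which encode chaperones that hold the receptor, were lower. At 22 weeks 5 further targets were higher and 1 lower, against 11.2% of all genes called higher and 13.7% called lower. At that age 6 chaperone and supply genes were lower, with Stip1 (-0.44), Hsp90ab1 (-0.33) and Hsp90aa1 (-0.41) having the smallest p.

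Whether NOD nonprogressors and NOR mice changed differently from 6 to 22 weeks was tested as an interaction. None of the 10 genes passed in edgeR (254 genes called of 20647, or 1.23%, with 0.63% higher and 0.601% lower, and 3360 at an unadjusted p under 0.05) or in DESeq2, which called 846 genes. Fkbp5 had the smallest adjusted p of the 10: its change was lower in nonprogressors by 0.77 on the log2 scale (95% interval -1.32 to -0.21, adjusted p = 0.154). Of the lists, Rhob, which encodes a small GTPase, differed by 0.81 (adjusted p = 0.0428) and Hsd11b1 by -2.04 (adjusted p = 0.0179).

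In progressors, 4 of the 10 genes differed between the mean of -5, -3, -1 weeks and onset and the 6-week biopsy, against 39.5% of all genes tested (19.6% higher and 19.9% lower), so the share called among the 10 was that of the table at large. Fkbp5 at 6 weeks was at 45.9, 66.7, 67.9, 34.6 and 48.1 CPM in progressors 1 to 5 and at 48.5, 40.5, 57.3, 62.9 and 44.2 CPM in progressors 6 to 10. The 20 later biopsies of batch 1 ran from 14.1 to 54.4 CPM (median 29.2), and the 20 of batch 2 from 16.6 to 46.6 CPM (median 23.2). Of these, 15 of 20 in batch 1 and 19 of 20 in batch 2 lay below the lowest 6-week biopsy of their batch.

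Fkbp5 was 1.91-fold lower at later times (log2 difference -0.94, SE 0.146, adjusted p = 9.27e-07), and the difference held within batch 1 (-0.83, adjusted p = 0.0128) and within batch 2 (-1.05, adjusted p = 8.76e-06). In batch 2 the 5 biopsies of onset were the lowest as a group, at 16.6 to 21.2 CPM. In batch 1 those of onset ran from 17.6 to 54.4 CPM. The background within batches was 27.1% of genes called in batch 1 and 31.2% in batch 2.

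Hif3a fell further but at much lower counts. It was at 1.11, 1.74, 2.13, 1.06 and 1.20 CPM at 6 weeks in progressors 1 to 5 and at 1.45, 0.791, 1.26, 2.501 and 0.981 CPM in progressors 6 to 10. Later biopsies ran from 0.0333 to 1.57 CPM (median 0.266) in batch 1 and from 0.151 to 1.13 CPM (median 0.490) in batch 2, with 17 and 15 of 20 below all the 6-week biopsies. The fall was 3.07-fold (log2 difference -1.62, SE 0.296, adjusted p = 1.75e-05), with -1.89 in batch 1 (adjusted p = 0.00785) and -1.41 in batch 2 (adjusted p = 0.00119).

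Cebpd fell 1.43-fold (log2 difference -0.52, SE 0.115, adjusted p = 0.000288). In batch 1 its 6-week biopsies were close together, at 77.9, 68.3, 75.6, 72.9 and 71.2 CPM, and 19 of 20 later biopsies lay below them (28.7 to 72.1 CPM, median 48.7). In batch 2 the 6-week biopsies had 48.0, 31.1, 32.99, 51.9 and 33.5 CPM and the later ones 16.3 to 43.2 CPM, with 13 of 20 below. Both batches showed the fall, by 0.56 (adjusted p = 0.0134) and 0.47 (adjusted p = 0.024).

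Sgk1 was the only 1 of the 10 called higher, 1.46-fold (log2 difference 0.55, SE 0.119, adjusted p = 0.000221). Its 6-week biopsies had 235, 186, 254, 350 and 285 CPM in batch 1 and 265, 314, 223, 236 and 212 CPM in batch 2. Later biopsies ran from 238 to 617 CPM (median 449) in batch 1, 17 of 20 above all the 6-week ones, and from 225 to 462 CPM (median 297) in batch 2, 9 of 20 above. The rise was 0.79 in batch 1 (adjusted p = 0.00261) and 0.33 in batch 2, where it missed the threshold (adjusted p = 0.0732).

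The other 6 genes did not pass the test in progressors. Nr3c1 was the most closely bounded, with a log2 difference of 0.02 and a 95% interval of -0.07 to 0.11, followed by Klf9 (0.17, interval 0.01 to 0.34) and Tsc22d3 (0.04, interval -0.2 to 0.29). The intervals of Mt1 (-0.91 to 0.05), Mt2 (-0.89 to 0.34) and Zbtb16 (-1.4 to -0.09) were wider.

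The RNA of cell type markers also differed between these times. All 6 fibroblast markers and 4 of 6 endothelial markers were lower at later times, and 4 of 7 T cell and 3 of 4 B cell markers were higher. The summed T cell markers differed by batch. In batch 1 their median was 16.0 CPM at 6 weeks and 9.71 to 13.0 CPM at the later times. In batch 2 it was 7.64 CPM at 6 weeks and 9.04 to 15.6 CPM later. The fibroblast markers summed to 44520 to 83240 CPM at 6 weeks in batch 1 and 39100 to 68120 CPM in batch 2, against 5899 to 43240 CPM in the later biopsies of both batches. Their part in the falls of Fkbp5, Hif3a and Cebpd and the rise of Sgk1 was not tested. All 4 genes remained called without the muscle-rich 6-week library of progressor 5. On the lists, 7 of 30 further targets were higher (Fbxo32 0.72, Bcl6 0.45 and Rhob 0.52 with the smallest p) and 2 lower, Ddit4, an inhibitor of the growth kinase mTOR (-0.72), and Il1r2 (-1.03). The shares over all genes tested were 19.6% higher and 19.9% lower. Of 13 chaperone and supply genes, Hsd11b1 (0.89) and Nr3c2 (0.52) were higher and 6 lower, with Hspa8 (-0.42), Stip1 (-0.32) and Hsp90aa1 (-0.34) having the smallest p. The metal importer Slc39a14 was lower (-0.38).

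**Figure D3:**
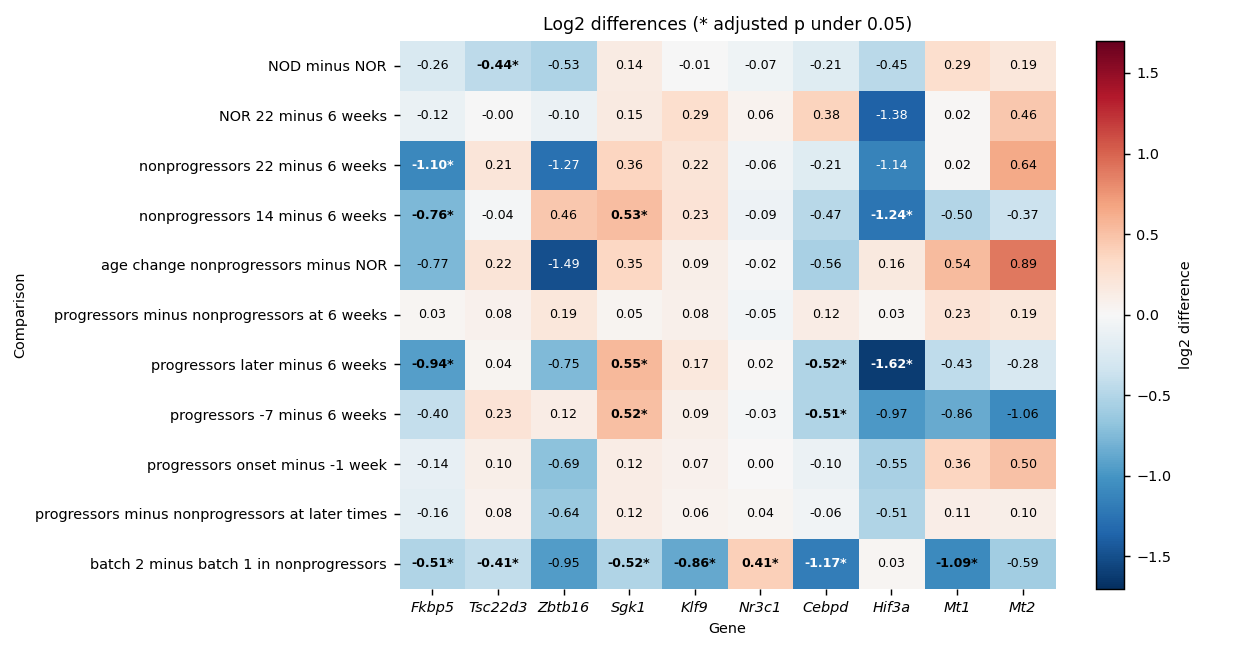
Fitted log2 differences of the 10 genes (columns) in each comparison (rows), as colour and printed value, with bold type and an asterisk where the adjusted p is under 0.05. Fkbp5 is marked lower in nonprogressors at 22 and 14 weeks (-1.10 and -0.76) and in progressors at later times (-0.94), and no gene is marked between progressors and nonprogressors.

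Followed mouse by mouse, as the mean log2 CPM of a mouse's later biopsies minus its 6-week value within a batch, the fall of Fkbp5 was present in every NOD mouse with both. Biopsies of -7 weeks were left out here, and the 6 nonprogressors of batch 2 had 1 later biopsy each, of 14 weeks. Fkbp5 was lower in 10 of 10 progressors (-1.54 to -0.51, median -0.91) and in 10 of 10 nonprogressors (-1.47 to -0.50, median -0.59). Of 23871 genes, 6.76% were lower in all 10 progressors and 2.07% were lower in all 20 of these mice. In the 4 NOR mice with a 6-week biopsy Fkbp5 was higher later in 4 of 4 (0.09 to 0.32), but the 10-week biopsies carried this, and without them the changes were -0.13 to 0.06. Tsc22d3 did not follow Fkbp5 in NOD mice, being higher later in 4 of 10 nonprogressors and 6 of 10 progressors.

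Hif3a was lower later in 10 of 10 progressors (median -1.71), 9 of 10 nonprogressors (median -1.20) and 4 of 4 NOR mice (median -0.56). Sgk1 was higher in 9 of 10 progressors (median 0.57), 9 of 10 nonprogressors (median 0.36) and 3 of 4 NOR mice (median 0.28), where 5.84% of all genes were higher in at least 9 of 10 of both NOD groups. Cebpd was lower in 9 of 10 progressors (median -0.55) and 7 of 10 nonprogressors (median -0.44), and in 2 of 4 NOR mice.

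**Figure D4:**
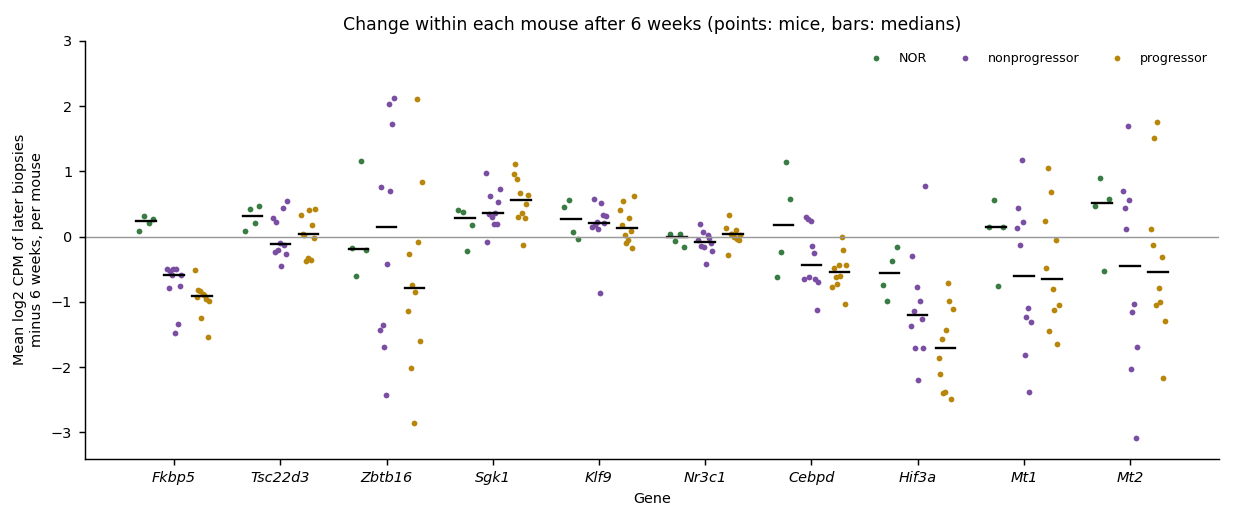
Change in each mouse, as the mean log2 CPM of its later biopsies minus its 6-week biopsy within batch; each point is a mouse of the 3 groups (NOR green, nonprogressor purple, progressor gold) and black bars are medians. For Fkbp5 all 20 NOD mice lie below 0 and the 4 NOR mice, with 10-week biopsies included, above it.

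At -7 weeks, the earliest progressor time after 6 weeks, Sgk1 was higher by 0.52 (adjusted p = 0.0219) and Cebpd lower by 0.51 (adjusted p = 0.0339), against 12.5% of all genes called (5.91% higher and 6.64% lower). As the -7-week libraries were all in batch 2, the fit leaned on batch differences estimated at other times. Within batch 2, where 4 of the 8 mice had no 6-week library, neither was called (Sgk1 0.35, adjusted p = 0.114, and Cebpd -0.47, adjusted p = 0.0698), and with mouse as a block neither was called (adjusted p = 0.442 and 0.0648). Fkbp5 at -7 weeks ran from 21.1 to 54.1 CPM (median 39.2, n = 8), between the 40.5 to 62.9 CPM of 6 weeks and the later values of its batch, overlapping both. The metallothioneins were low in batch 2 at this time, with estimates within the batch of -1.11 for Mt1 (adjusted p = 0.0693) and -1.44 for Mt2 (adjusted p = 0.0677) that missed the threshold. On the lists, Hsd11b1 had a log2 difference of 1.36 (adjusted p = 0.00181) and Ddit4 of -1.27 (adjusted p = 0.00102). Fibroblast markers were lower for 3 of 6 genes, and their part was not tested.

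From -1 week to onset none of the 10 genes was called by edgeR, which called 1 gene of 21279 (0.0047%) with 2120 at an unadjusted p under 0.05, or by DESeq2, which called 5.

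Progressors and nonprogressors were compared at 6 weeks, before any of them was hyperglycemic, and at later times. At 6 weeks edgeR called 0 of 20090 genes (0%), with 999 at an unadjusted p under 0.05, and DESeq2 called 0. The difference of Fkbp5 was 0.03 with a 95% interval of -0.26 to 0.33, that of Tsc22d3 0.08 (-0.15 to 0.3) and that of Sgk1 0.05 (-0.18 to 0.28). Nr3c1 was bounded most closely, at -0.05 (-0.15 to 0.05), and Zbtb16 least, at 0.19 (-0.53 to 0.91). At later times edgeR called 0 of 23833 genes (0%), with 2238 at an unadjusted p under 0.05, and DESeq2 called 146, none of the 10 among them. Hif3a had a difference of -0.51 (-1.06 to 0.04) and Zbtb16 of -0.64 (-1.34 to 0.06), while that of Nr3c1 was 0.04 (-0.05 to 0.12) and that of Fkbp5 -0.16 (-0.46 to 0.13). Progressor times were set by onset and nonprogressor times by age, so age is not matched in the later comparison.

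Covariation across libraries was described after the mean of each group, time and batch had been taken away, as Pearson's r of log2 CPM over 74 libraries in batch 1 and 46 in batch 2. Libraries of a mouse share that mouse, and libraries share depth and composition, so r is given without a p. The 10 genes did not move as 1 block. Mt1 and Mt2 were the closest pair (r = 0.944 in batch 1 and 0.972 in batch 2). The receptor gene went with Klf9 (0.492 and 0.582), Klf9 with Tsc22d3 (0.540 and 0.450), and Sgk1 with Tsc22d3 (0.335 and 0.614). With Nr3c1, 95% of all other genes had r between -0.517 and 0.646 in batch 1 and between -0.509 and 0.586 in batch 2. Its r with Klf9 lay within these ranges, but above the upper limits of Klf9 (0.484 and 0.444). The r of Sgk1 with Tsc22d3 lay below the upper limits of both genes in batch 1 (0.598 and 0.345) and above them in batch 2 (0.581 and 0.547).

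Fkbp5 correlated with Tsc22d3 at 0.427 and 0.383 and with Hif3a at 0.523 and 0.352, while its r with Mt1 was 0.189 and 0.011. Over all 23870 other genes the r of Fkbp5 had a median of -0.005 and -0.017, with 95% of genes between -0.333 and 0.376 in batch 1 and between -0.421 and 0.444 in batch 2. Tsc22d3 stood 313th in the order of genes like Fkbp5, ranked by the lower of both r. The 5 genes most like Fkbp5 by that measure were Jaml (0.621 and 0.617), Ccnd3 (0.609 and 0.640), Slc10a6 (0.657 and 0.608), Wee1 (0.585 and 0.621) and Tgfbr3 (0.591 and 0.576). Those most like Mt1, after Mt2, were Mif (0.880 and 0.959), Mgarp (0.888 and 0.850), Fosl1 (0.849 and 0.883), Eno1 (0.848 and 0.953) and Ndufa4l2 (0.841 and 0.904).

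Some pairs opposed each other or differed between batches. Zbtb16 and Sgk1 had negative r in both batches (-0.570 and -0.343). In batch 2 this lay within the 95% ranges over all genes of both (lower limits -0.473 and -0.48). In batch 1 it lay within that of Sgk1 (-0.573) but below that of Zbtb16 (-0.482). Sgk1 and Cebpd were at -0.568 in batch 1 and -0.155 in batch 2, and Cebpd and Mt1 at 0.067 and 0.734. Without the NOR library of mouse 5 at 18 weeks, 5 pairs of batch 1 moved by more than 0.1, among them Nr3c1 with Hif3a (from -0.005 to 0.301) and Nr3c1 with Mt2 (from 0.262 to 0.457).

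**Figure D5:**
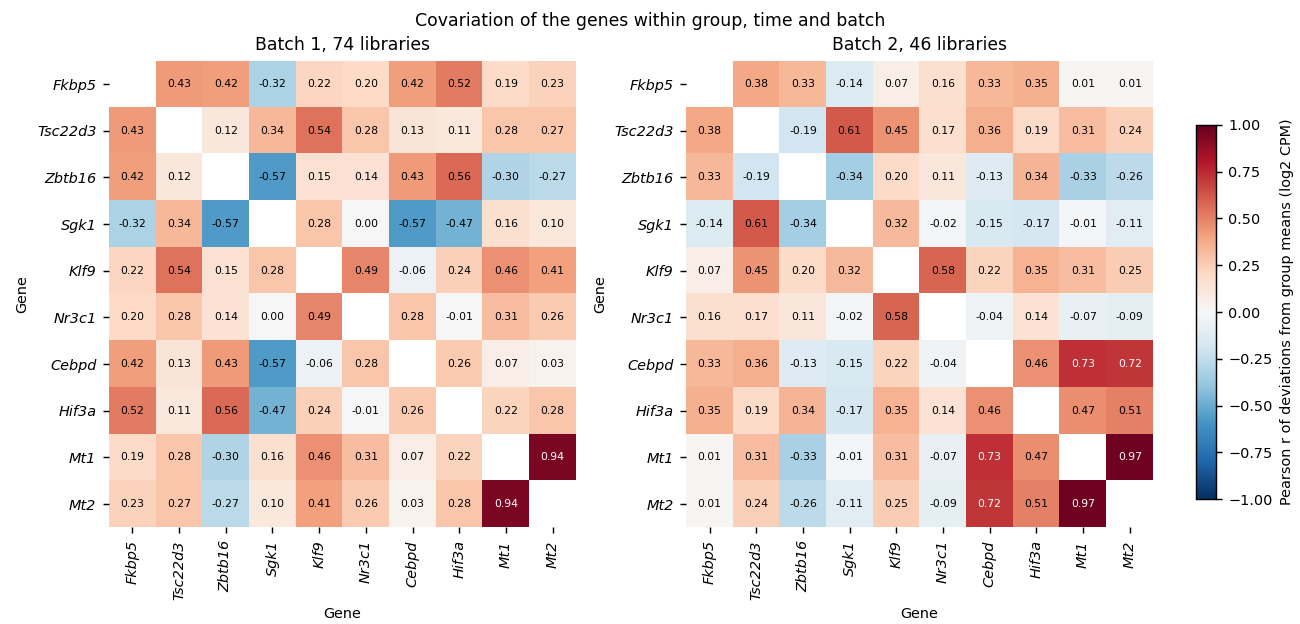
Pearson's r (colour and printed value, from -1 to 1) between pairs of the 10 genes over libraries, after removal of group, time and batch means, for batch 1 (n = 74) and batch 2 (n = 46). Mt1 with Mt2 is the darkest cell in both (0.944 and 0.972), and Zbtb16 with Sgk1 is negative in both (-0.570 and -0.343).

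The same deviations were set beside summed cell type markers. Fkbp5 went with fibroblast markers (r = 0.568 in batch 1 and 0.527 in batch 2), as did Cebpd (0.427 and 0.443). Zbtb16 went with skeletal muscle (0.593 and 0.590), adipocyte (0.582 and 0.613) and endothelial markers (0.432 and 0.639) and against macrophage markers (-0.419 and -0.412). Mt1 went against adipocyte (-0.610 and -0.436), endothelial (-0.694 and -0.427) and muscle markers (-0.407 and -0.484). The r of Sgk1 with fibroblast markers was -0.472 in batch 1 and -0.013 in batch 2, a difference that was not tested. The part of cell composition in the pairs above was not tested.

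With 1 biopsy per NOD mouse at 6 weeks, where mice are independent, 90 relations (45 pairs in each batch) were tested by permutation over mice, two-sided. In batch 1 (n = 9, exact permutation) Zbtb16 and Mt2 opposed each other (r = -0.895, p = 0.000626, adjusted p = 0.0282, rho = -0.933, adjusted p = 0.0209) and kept r = -0.885 without the 2 mice farthest from the median of Zbtb16. In batch 2 this pair had r = -0.126 and rho = -0.112. Mt1 and Mt2 went together in batch 1 (r = 0.889, exact permutation p = 0.00106, adjusted p = 0.0306, rho = 0.933, adjusted p = 0.0209, r = 0.858 without 2 mice). In batch 2 (n = 12) they did so again (r = 0.947, permutation p = 1e-05, the smallest the resamples can give, adjusted p = 0.0009, rho = 0.972, r = 0.919 without 2 mice).

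Zbtb16 and Hif3a were correlated in batch 2 (r = 0.805, permutation adjusted p = 0.0306, rho = 0.853, adjusted p = 0.0209, r = 0.767 without 2 mice). Klf9 and Hif3a passed by r only (0.793, permutation adjusted p = 0.0414, rho = 0.671, adjusted p = 0.154), and their r was 0.473 without 2 mice, so that relation rests on those samples. Fkbp5 with Zbtb16 (rho = 0.825, adjusted p = 0.0292) and Tsc22d3 with Klf9 (rho = 0.818, adjusted p = 0.0292) passed by rank in batch 2 alone, as did Zbtb16 with Mt1 in batch 1 (rho = -0.883, adjusted p = 0.0396). In the other batch the rho of these pairs was, in that order, 0.217, 0.55 and -0.119. Of all these, only Mt1 with Mt2 passed in both batches. Whether the batches differ in the other relations was not tested.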

How the data were processed

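IN biopsies were lysed in TRIzol and the total RNA was depleted of ribosomal RNA and sequenced on a different Illumina NovaSeq model for each batch. The authors deposited 1 table per batch of estimated counts per gene, as whole numbers; their processing notes name cutadapt, FastQC, STAR, RSEM and MultiQC, without versions, and GRCm38. Whether counting used strand is not given in the sources used here, so reads of overlapping antisense genes cannot be told apart from those of the genes named. Reporter sequence rows (2.55e-08% of counts) were left out.

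The tables were joined over 55487 shared genes. CPM used TMM effective library sizes over 23871 genes, and log2 CPM a prior count of 2. Differences were tested in edgeR 4.0.16 (R 4.3.3) with its quasi-likelihood test after filterByExpr and TMM, over all genes, with Benjamini-Hochberg adjusted p and a threshold of 0.05. Tests over both batches had a batch term; for the strain comparison counts were summed per mouse in batch 1. Libraries of a mouse were treated as separate samples in the other fits. Intervals are 1.96 SE either side. DESeq2 1.42.0 was an alternative, as were other size factors, no filter, no batch term, single batches, mouse as a block and leaving out each mouse; the closing section gives their effect. Permutation tests used numpy 2.4.6, and figures matplotlib 3.10.9. On simulated counts, where 200 genes were given a log2 change of 1, the fit recovered 73.5% in the strain comparison (23175 genes), 71.5% in progressors later against 6 weeks (21031 genes) and 73% in nonprogressors at 14 against 6 weeks (20816 genes). Of the genes called in these simulations, 5.77%, 6.54% and 5.19% had not been changed.

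Depth was 4722396 to 56185434 counts per library. The 239 pairs of replicates all differed by more than counting error (chi-square divided by its degrees of freedom was 11.01 or more), so none was counted as a duplicate. Mouse numbers pair the libraries because the labels give the same mouse at several times; the mean correlation of same-mouse deviations over 2000 genes was -0.00328 in progressors, 0.00635 in NOR and 0.00495 in nonprogressors.

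The 10 genes and the lists (30 further targets, 13 genes of chaperones and supply, 6 of metal handling, and cell type markers) were chosen with earlier results of these data known. All 10 genes are named in each comparison or counted there; of a list, up to 3 genes in each direction with the smallest p among those past the threshold are named, and for likeness the 5 genes with the highest lower r of both batches. Exon lengths are from GENCODE M21 (GRCm38) and promoter windows from RefSeq; no windows were used here for Zbtb16, Cebpd and Nr3c1. The leaving out of the 10-week biopsies, and of single libraries except that of NOR mouse 5 at 18 weeks for 22 against 6 weeks, was chosen after seeing the data.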

Additional observations from a re-analysis of the deposited data

Results flagged for a closer look

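Within groups of 4 to 10 biopsies of 1 batch, 18 of 230 combinations of gene and group had a highest or lowest biopsy whose distance to the next exceeded Dixon's 95% limit; chance flags about 1 in 20 such groups. Values are CPM, with the range of the other biopsies of the group.

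The metallothioneins were flagged together in 2 libraries. Nonprogressor 5 at 14 weeks (batch 2) had 107 CPM of Mt1 (others 23.5 to 31.4) and 96.9 CPM of Mt2 (others 15.4 to 22.2), and the same library had 1.08 CPM of Zbtb16, below the 10.0 to 32.4 of the others. Progressor 8 at -3 weeks had 81.5 CPM of Mt1 (others 42.3 to 48.1) and 63.4 CPM of Mt2 (others 26.8 to 33.5). Mt1 alone was high in NOR mouse 4 at 6 weeks, at 198 CPM (others 86.5 to 93.6), and low in nonprogressor 2 at 14 weeks, at 97.2 CPM (others 144 to 156).

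Fkbp5 was high in nonprogressor 4 at 10 weeks, at 71.3 CPM (others 33.7 to 37.7). Nr3c1 was low in NOR mouse 5 at 18 weeks, at 68.7 CPM (others 117 to 128), which is the library dominated by ribosomal RNA, and in progressor 8 at -1 week, at 143.8 CPM (others 157 to 162). It was high in NOR mouse 2 at 6 weeks, at 124 CPM (others 115.8 to 116.3), and in NOR mouse 5 at 14 weeks, at 132 CPM (others 116 to 120.4).

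Klf9 was low in nonprogressor 6 at 14 weeks, at 55.3 CPM (others 78.9 to 94.1), in nonprogressor 3 at 18 weeks, at 109 CPM (others 148 to 153), which is the library with the fewest counts, and in progressor 2 at -3 weeks, at 122.5 CPM (others 143.5 to 152). Sgk1 was high in progressor 6 at -5 weeks, at 366.5 CPM (others 257 to 282). Hif3a was low in progressor 2 at -5 weeks, at 0.0333 CPM (others 0.198 to 0.301), and Zbtb16 in NOR mouse 4 at 18 weeks, at 5.89 CPM (others 13.2 to 14.1).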

How the results depend on the processing

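The number of the 10 genes called between NOD and NOR was 0 with 6-week samples only, with nonprogressors only and without the 10-week biopsies, and 0 to 2 when single mice were left out (0 without NOR mouse 2 or 4, and 2 without nonprogressor 4), against 1. Over all genes the 6-week samples called 403, and leaving out mice gave 1433 to 2081. For NOR 22 against 6 weeks, the F test over ages called 2 of the 10; over all genes DESeq2 called 517, the F test 1617, the fit without the 18-week library of NOR mouse 5 380, and leaving out mice 21 to 327. For nonprogressors 22 against 6 weeks, the F test called 3 of the 10 and a fit with no batch term 4, and leaving out mice gave 3427 to 4416 genes. At 14 against 6 weeks, batch 1 alone called 0 of the 10 and 1117 genes. For the difference in age change, DESeq2 called 846 genes, no filter 120, the fit without the 18-week library of NOR mouse 5 638, and leaving out mice 20 to 511.

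In progressors at later times, batch 1 alone called 5317 genes. At -7 weeks, no filter called 1 of the 10, and mouse as a replicate block with batch, and batch 2 alone, called 0 each, with 852 and 4077 genes. From -1 week to onset DESeq2 called 5 genes, batch 1 alone 0 and batch 2 alone 529. Between progressors and nonprogressors at later times DESeq2 called 146 genes, DESeq2's size factors in edgeR 3 and batch 2 alone 4. Between batches the 14-week libraries alone called 6084.

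Of single genes, these changed sign, the cause not being tested: Cebpd between strains at 6 weeks (0.22), Tsc22d3 in NOR 22 against 6 weeks with mouse as a replicate block (0.015) and without NOR mice 1, 2 and 3 (range over mice left out -0.134 to 0.086), Nr3c1 in nonprogressors 22 against 6 weeks within batch 1 (0.021) and without nonprogressor 3 (range over mice left out -0.147 to 0.031), and Mt1 at 14 against 6 weeks within batch 1 (0.37). In all, 244 of the alternative values of single genes kept their direction and side of the threshold, 18 lost the call, 14 gained it and 8 changed sign. The pairing by mouse changed no other call than those given here and for Cebpd at 14 weeks. With the smallest library total at 4722396 counts and the smallest effective size at 990287, Hif3a, at a median of 21 counts, was limited most by depth.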

Other observations

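The 6 nonprogressor biopsies labelled by days after implantation are not tied to an age and entered no comparison. Fkbp5 was at 35.6 and 33.6 CPM at 31 days, 28.0 and 28.9 CPM at 38 days and 33.6 and 33.2 CPM at 108 days. Tsc22d3 was at 129 and 164 CPM, 83.9 and 112 CPM, and 152 and 202 CPM at the same times. Hif3a was at 1.08 and 0.411 CPM, 0.352 and 0.127 CPM, and 0.363 and 0.417 CPM. The 4 biopsies of 6-week nonprogressors of the same batch had 47.5 to 66.5 CPM of Fkbp5.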
